A study of Mus musculus with 6 samples.

Results

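Expression of 31 genes of cholesterol synthesis, uptake, transport and export was examined in whole testes of Dazap1 mutant and wild-type mice at postnatal day 21 (P21). The genes were picked as a pathway: Acat2, Hmgcs1, Mvk, Pmvk, Mvd, Idi1 and Fdps of the mevalonate arm, Fdft1, Sqle, Lss, Cyp51, Tm7sf2, Msmo1, Nsdhl, Hsd17b7, Ebp, Sc5d and Dhcr7 of the squalene and sterol arm, the regulators Srebf1, Srebf2, Scap, Insig1 and Insig2, the transport and storage genes Stard4, Npc1, Npc2, Lipa and Soat1, and Abca1, Abcg1 and Scarb1 of export and uptake. A member was read by every probe set whose annotation names that gene alone, and its brightest probe set stood for it. This gave 29 members with 66 probe sets, out of 13447 genes tested. Acat2 and Soat1 had no probe set under this rule and were not analysed here. All 29 passed the filter on dim probe sets, as did 55 of the 66 probe sets.

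The mutants (Fn, n = 3) were homozygous for the Floxed with Neo allele of Dazap1, from which an aberrant DAZAP1 protein with an insert between its RNA recognition motifs is made, and the wild-type group (Wt, n = 3) had the same mixed C57BL/6 and 129 background. No animals were treated. The mutants are known for high early mortality, small body size and a block in spermatogenesis, and the study's authors raised the possibility that P21 Fn spermatocytes were less advanced than Wt ones. Each sample was hybridised to its own Affymetrix Mouse Genome 430 2.0 array. The authors deposited MAS5 signals, which are linear intensities already scaled between arrays. A signal was tested on the log2 scale with limma, and adjusted p-values are Benjamini-Hochberg values over the 27022 probe sets tested. The Dazap1 probe set gave 2538, 2735 and 2819.8 in Fn, against 4323, 4462 and 5046 in Wt testes (log2 change -0.77, adjusted p = 6.7e-05 from limma), while its place relative to the altered part of the gene is not given in the sources used.

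Cholesterol is built from acetyl-CoA. The mevalonate arm makes farnesyl diphosphate, squalene synthase (Fdft1) commits it to sterols, and a chain of sterol enzymes then turns squalene into lanosterol and finally cholesterol. When membranes of the endoplasmic reticulum hold little sterol, SCAP escorts the SREBP transcription factors to the Golgi, where they are cut and released to switch on these genes, while INSIG proteins hold SCAP back when sterol is plentiful. In the testis, cholesterol feeds the androgens of Leydig cells and the membranes of germ cells, and the intermediates that CYP51 and TM7SF2 make are known as meiosis-activating sterols.

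The 250 bases before the start sites of 4 members are printed because the members are known targets of SREBP or, for Cyp51 in mouse germ cells, of CREM. They come from RefSeq, assembly GRCm38.p6, and are written 5′ to 3′ in the direction of transcription. Capitals mark CACNCCAC, the core of a sterol regulatory element, CCAAT, the box bound by NF-Y, and TGACG, a partial cAMP response element, each on either strand, and no marked letters overlap. Hmgcs1, Insig1 and Cyp51 were higher in Fn testes and Idi1 was lower.
Hmgcs1, chr13:119690101-119690350 on the plus strand: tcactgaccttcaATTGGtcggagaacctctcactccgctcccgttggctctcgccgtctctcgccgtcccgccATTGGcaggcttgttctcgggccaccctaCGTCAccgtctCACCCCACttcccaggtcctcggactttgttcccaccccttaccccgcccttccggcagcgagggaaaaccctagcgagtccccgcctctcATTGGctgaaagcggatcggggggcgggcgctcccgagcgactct
Insig1, chr5:28071162-28071411 on the plus strand: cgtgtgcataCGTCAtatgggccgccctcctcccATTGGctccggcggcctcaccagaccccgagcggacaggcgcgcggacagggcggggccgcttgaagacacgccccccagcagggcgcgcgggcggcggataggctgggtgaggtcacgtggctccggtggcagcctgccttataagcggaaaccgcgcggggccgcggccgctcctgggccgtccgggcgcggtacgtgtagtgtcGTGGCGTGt
Cyp51, chr5:4104698-4104947 on the minus strand: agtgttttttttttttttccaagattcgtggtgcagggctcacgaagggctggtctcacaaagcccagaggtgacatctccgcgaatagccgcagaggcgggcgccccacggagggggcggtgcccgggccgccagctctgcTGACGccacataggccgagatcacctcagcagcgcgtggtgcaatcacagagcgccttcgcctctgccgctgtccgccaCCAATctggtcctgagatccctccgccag
Idi1, chr13:8885356-8885605 on the plus strand: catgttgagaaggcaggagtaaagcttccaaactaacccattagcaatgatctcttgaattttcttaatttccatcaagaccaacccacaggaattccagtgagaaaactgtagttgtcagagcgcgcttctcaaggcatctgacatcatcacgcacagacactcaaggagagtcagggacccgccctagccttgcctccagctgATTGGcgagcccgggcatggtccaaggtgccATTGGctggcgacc

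RefSeq start sites were matched for 22 of the 29 members, with 30 windows of this length. CCAAT stood in at least 1 window of 20 of the 22, against 37.5% of all 27025 genes in the table, and in both lower members with a window, Idi1 and Insig2, as well as in 13 of 15 higher ones. GGGCGG, the GC box, was likewise found in 20 of the 22 and in 35.4% of all genes. CACNCCAC was found in Hmgcs1 and Insig1, and in 6.05% of all genes. TGACG was found in 8 of the 22 members and 19.8% of all genes, and the whole element TGACGTCA in 0 members and 1.77% of all genes. CCAAT and GGGCGG were thus present in members of both directions, and CACNCCAC in 2 of 15 higher and 0 of 2 lower members. A match describes the letters and does not show that a factor binds there.

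Most cholesterol genes were modestly higher in Fn testes, while a few enzymes and the regulator Insig2 were lower. Of the 29 members, 19 were higher and 4 were lower at an adjusted p under 0.05 from limma, and 6 did not pass. This is 65.5% higher and 13.8% lower, against 44.9% and 24.7% of all 13447 genes. The 4 lower members were Fdft1, Idi1, Sqle and Insig2. The median log2 change, Fn minus Wt, was 0.60 over the members and 0.32 over all genes, and 22 members lay above the median of all genes. With the arrays centred on their medians, 16 members were higher and 4 lower (33.1% and 27.4% of all genes), and the medians were 0.44 and 0.17. Beyond 2-fold, 1 member was higher, Scap, and 1 lower, Fdft1, against 11.8% and 13.9% of all genes. All 3 Fn signals lay above all 3 Wt signals in 21 members and below them in 4, which compares with 48.9% and 26.6% of all genes.

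**Figure D1:**
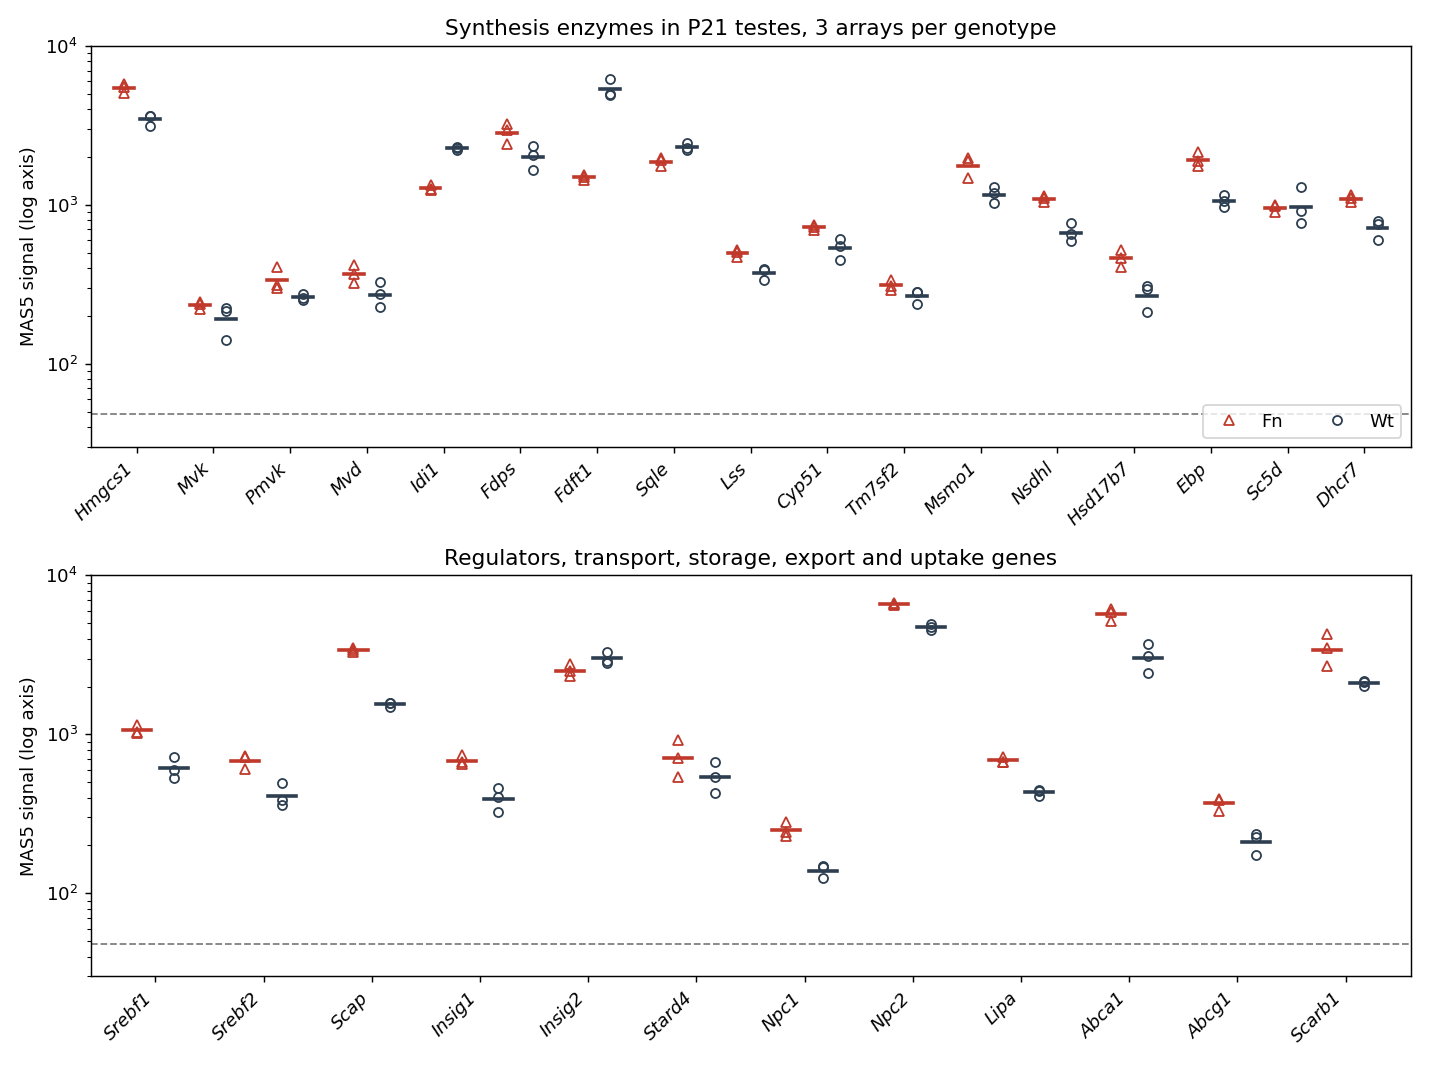
MAS5 signal on a log axis of each member in 3 Fn arrays (triangles) and 3 Wt arrays (circles) of P21 testes, synthesis enzymes above and the other members below. A short bar gives each geometric mean, and dashes mark 48.0, the level of the filter. Fdft1 and Idi1 show the widest gaps downward in Fn, and Scap the widest gap upward.

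Whole testes were measured, so fewer cells of a type and less RNA per cell cannot be told apart. Markers of several cell types moved with genotype, while 44.9% of all genes were higher and 24.7% lower. The study's authors described P21 testes of both genotypes as made up mainly of pachytene spermatocytes, with few or no haploid spermatids. In Wt testes of that age they put a small part of the germ cells past meiosis. Of 10 pachytene spermatocyte markers, 9 were lower, and their summed signal was 15273 to 22331 in Fn and 76174 to 82217 in Wt arrays. All 8 round spermatid markers tested of 10 were lower (2573 to 3304 in Fn, 26018 to 30475 in Wt). The filter used the mean over both genotypes, and some of these markers passed it through their Wt signals. Ccna1 gave 25.2, 41.2 and 27.3 in Fn, Acrv1 14.4, 52.1 and 14.2, and Catsper3 25.6, 50.1 and 35.5, mostly under the filter level of 48.0. Such markers could only be called lower. The study's authors had picked Ccna1, Nlrp14 and Piwil1 of the pachytene markers from genes lower on these arrays. They had also picked Tssk2, which enters only the round spermatid sum. The falls of these genes were thus known beforehand. Sertoli cell markers were higher in 11 of 12 (72052 to 74562 in Fn, 45241 to 52106 in Wt), peritubular myoid and stromal markers in 10 of 10 (57767 to 60591 in Fn, 26507 to 35578 in Wt) and spermatogonial markers in 9 of 9 tested (14705 to 16875 in Fn, 7669 to 9324 in Wt). Leydig cell markers were higher in 4 of 6 tested, with overlapping sums (7455 to 13690 in Fn, 7031 to 10961 in Wt), and macrophage markers were higher in 5 and lower in 1 of 9 tested (6666 to 9439 in Fn, 5181 to 6518 in Wt). The Leydig and macrophage counts lie nearest the shares of all genes and are not read as shifts of those cells. Adipocyte markers were higher in 4 of 5 tested (5924 to 11847 in Fn, 1388 to 5322 in Wt), while Lep stayed under the filter level on every array. The part of these shifts in the changes of the members was not tested.

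The mevalonate arm did not move as a block. Hmgcs1, whose product makes HMG-CoA, had signals of 5775, 5479 and 5067 in Fn, against 3617, 3627 and 3141 in Wt testes (log2 change 0.65, standard error 0.088, adjusted p = 1.8e-04 from limma). Every Fn value lay above every Wt value, as in 48.9% of all genes. For Hmgcs1, 3 further probe sets gave log2 changes of 0.57, 0.60 and 0.69. Fdps, farnesyl diphosphate synthase, gave 3245, 2399.6 and 2967 in Fn, against 2342, 2063 and 1652 in Wt testes, again without overlap (log2 change 0.51, adjusted p = 0.013 from limma, but 0.090 after median centring and 0.059 without Fn replicate 1). The kinases Mvk and Pmvk and the decarboxylase Mvd had log2 changes of 0.31, 0.36 and 0.42 and did not pass (adjusted p = 0.21, 0.074 and 0.057 from limma). Pmvk, whose groups did not overlap, passed only with array weights (log2 change 0.50, adjusted p = 0.017 from limma). For Mvd the adjusted p was 0.010 with the mean of its probe sets, 0.024 with the replicate number as a block and 0.029 without Wt replicate 2, and its second probe set passed with 0.69 (limma, adjusted p = 0.022).

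Between these genes stood Idi1, the isomerase that supplies the second building block for farnesyl diphosphate, which was lower. Its signals were 1257, 1237 and 1324 in Fn, against 2280, 2225 and 2324 in Wt testes, tight in both groups and far apart (log2 change -0.84, standard error 0.086, adjusted p = 3.6e-05 from limma). The less bright Idi1 probe set moved less, with 678.5, 652.1 and 570.8 in Fn and 737.4, 822.3 and 765.9 in Wt testes (log2 change -0.29, adjusted p = 0.052 from limma). Within each array, where a constant factor per array cancels, the log2 ratio of Idi1 to Hmgcs1 was 1.49 lower in Fn than in Wt testes (differences of -1.77 to -1.23 over the pairs of arrays). These genes had opposite changes, so the sign of their ratio follows from those changes and is no separate result. The same holds below for the ratios of Fdft1 to Fdps and of Insig2 to Insig1.

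Fdft1, squalene synthase, showed the largest change of any member when each was read by its brightest probe set. It had signals of 1535, 1501 and 1437 in Fn, against 4977, 4906 and 6224 in Wt testes, a 3.58-fold fall (log2 change -1.84, standard error 0.10, adjusted p = 8.0e-07 from limma). Its second probe set was as clear, with 1689, 1605 and 1517 in Fn and 4447, 4943 and 5382 in Wt testes (log2 change -1.62). The other 2 Fdft1 probe sets lay under the filter level on every array, and the mean over all 4 gave -0.80. Of all genes tested, 1011 fell further, or 7.52%. The neighbours on either side of this step differed from it: relative to Fdps, which feeds it, the log2 ratio within an array was 2.35 lower in Fn (-2.99 to -1.76), and relative to Sqle, which follows it, it was 1.53 lower (-1.71 to -1.38). Sqle, squalene epoxidase, itself fell slightly, with 1977, 1903 and 1746 in Fn, against 2215, 2286 and 2455 in Wt testes (log2 change -0.31, standard error 0.091, adjusted p = 0.015 from limma).

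The sterol enzymes after Sqle were higher or did not pass. Ebp, the sterol isomerase, had 1877, 1767 and 2162 in Fn, against 1160, 1058 and 970.1 in Wt testes (log2 change 0.86, standard error 0.11, adjusted p = 1.6e-04 from limma). Nsdhl, a sterol dehydrogenase, had 1141, 1045 and 1104 in Fn, against 773, 657.5 and 589.5 in Wt testes (log2 change 0.71, adjusted p = 8.4e-04 from limma). Neither gene's groups overlapped (Fn lay wholly above Wt in 48.9% of all genes), and these are the 2 X-linked members. Hsd17b7, a sterol ketoreductase, rose by 0.78 on the log2 scale with 2 further probe sets at 0.79 and 0.65, Dhcr7, which reduces dehydrocholesterol to cholesterol, by 0.62, and Msmo1, the methylsterol oxidase, by 0.60 (0.98 with the mean of its 2 probe sets, 1 of which did not pass the filter). Their adjusted p-values were 0.0039, 0.0023 and 0.0036 from limma.

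Both enzymes that handle lanosterol moved less and less surely. Lss, lanosterol synthase, had 523.5, 503.8 and 466.7 in Fn, against 392.5, 390.3 and 337.8 in Wt testes (log2 change 0.42, adjusted p = 0.018 from limma), and Cyp51, the lanosterol demethylase, had 728.7, 744.1 and 693.8 in Fn, against 612.9, 552.6 and 449.9 in Wt testes (log2 change 0.43, adjusted p = 0.020 from limma). Neither overlapped (Fn lay wholly above Wt in 48.9% of all genes). Each call was lost after median centring (limma, adjusted p = 0.16 for Lss and 0.14 for Cyp51), after centring on the 75th percentile (0.077 and 0.073) or quantile normalization (0.069 and 0.065). Each was also lost with the mean of probe sets (0.51, at a log2 change of 0.19, and 0.22). For both genes that mean includes 1 probe set that did not pass the filter. The calls were lost too without Fn replicate 1 (0.071 and 0.059) or Wt replicate 3 (0.051 and 0.054), and for Cyp51 also without Fn replicate 2 (0.051). Their second probe sets had log2 changes of 0.30 and 0.28 and did not pass. Tm7sf2, the reductase that acts after Cyp51, had a change of 0.21 on the log2 scale that did not pass (limma, adjusted p = 0.23). Sc5d, a sterol desaturase, had 991.5, 900.1 and 990.3 in Fn, against 1294.5, 913.2 and 766.3 in Wt testes, with overlap and a log2 difference of -0.01 (limma, standard error 0.17, adjusted p = 0.96), and its 3 probe sets disagreed, with -0.01, -0.21 and 0.59.

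**Figure D2:**
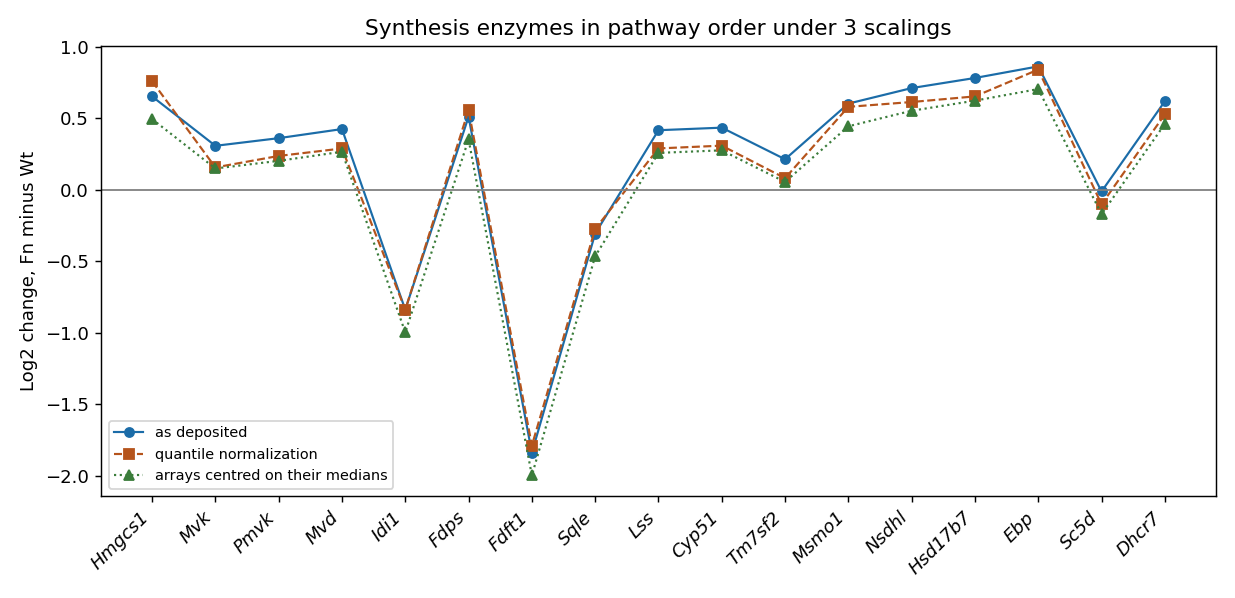
Change in log2 signal (Fn minus Wt) of the 17 synthesis enzymes measured, in pathway order from Hmgcs1 to Dhcr7, on the deposited scale (circles), after quantile normalization (squares) and after centring each array on its median (triangles). Under all 3 scalings Idi1, Fdft1 and Sqle lie below 0 and Fdps between them lies above it, and Sc5d, which did not pass, lies at or just under 0.

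Of the 5 regulators, 4 were higher and 1 was lower. Scap, the escort of SREBP, was the member with the largest rise, with 3312, 3513 and 3404 in Fn, against 1581, 1582 and 1494 in Wt testes, 2.20-fold higher (log2 change 1.14, standard error 0.081, adjusted p = 3.3e-06 from limma; 1.96 with the mean of its probe sets, 1 of which is under the filter level). Of all genes tested, 860 rose further, or 6.40%. Srebf1, which favours fatty acid genes, had 1025, 1039 and 1143 in Fn, against 600.6, 721.4 and 528.6 in Wt testes (log2 change 0.80, adjusted p = 6.3e-04 from limma). Srebf2, the main driver of cholesterol genes, had 602.8, 720 and 734.7 in Fn, against 492, 360.8 and 388.2 in Wt testes (log2 change 0.74, adjusted p = 0.0022 from limma), and its second probe set rose by 1.06. No Fn value of these 3 genes fell within the Wt range. All 3 Fn values lay above all 3 Wt values in 48.9% of all genes as well.

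The INSIG pair split. Insig1, itself an SREBP target, had 744.7, 647.6 and 666.1 in Fn, against 404.7, 459.8 and 323.5 in Wt testes (log2 change 0.81, standard error 0.15, adjusted p = 0.0013 from limma). Insig2 had 2513, 2757 and 2314 in Fn, against 2828, 3299.5 and 2914 in Wt testes (log2 change -0.25, standard error 0.098, adjusted p = 0.046 from limma). Its call was lost when Fn replicate 1 or 3 or Wt replicate 2 or 3 was left out (adjusted p = 0.061 to 0.16) after quantile normalization (0.15), with no filter on dim probe sets (0.067) and with no intensity trend in the variance (0.11), and the other 2 probe sets were also down, by -0.41 (adjusted p = 0.012 from limma) and -0.21 (adjusted p = 0.11). The log2 ratio of Insig2 to Insig1 within an array was 1.06 lower in Fn (-1.42 to -0.71).

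Genes of the lysosomal route, by which cholesterol from lipoproteins is freed and leaves the lysosome, were higher. Lipa, the acid lipase, had 674.4, 666.5 and 725.1 in Fn, against 408.8, 446 and 440.3 in Wt testes (log2 change 0.67, adjusted p = 7.1e-04 from limma). Npc2, the soluble carrier of the lysosome lumen, had 6709, 6497 and 6643 in Fn, against 4726, 4915 and 4558 in Wt testes (log2 change 0.48, standard error 0.067, adjusted p = 2.1e-04 from limma), and Npc1, the membrane protein that takes sterol over from it, had 243.3, 281.1 and 227.9 in Fn, against 148.5, 145.4 and 124.1 in Wt testes (log2 change 0.85, adjusted p = 0.0020 from limma). None of the 3 overlapped between genotypes. In 48.9% of all genes, too, every Fn value lay above every Wt value. Stard4, a cytosolic sterol carrier, depended on the probe set: the brightest had 915.5, 711.1 and 539.5 in Fn, against 666.7, 542.1 and 429.6 in Wt testes, with overlap (log2 change 0.39, adjusted p = 0.13 from limma, 0.015 with the replicate number as a block, 0.045 with array weights, 0.023 with the mean of probe sets and 0.029 without Fn replicate 3), and the second had 951.5, 717.6 and 623.2 in Fn, against 457.5, 455.7 and 293 in Wt testes (log2 change 0.93, adjusted p = 0.0036 from limma).

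Genes of export and uptake were all higher. Abca1, which hands cholesterol to apolipoproteins, had 5876, 5181 and 6123 in Fn, against 3691, 3133 and 2421 in Wt testes (log2 change 0.91, standard error 0.14, adjusted p = 4.0e-04 from limma), and its other probe sets both rose by 0.86. Abcg1, which loads HDL, had 331.8, 386.1 and 391.5 in Fn, against 235.9, 226.5 and 173.9 in Wt testes (log2 change 0.81, adjusted p = 0.0022 from limma). With the mean of its 2 probe sets, 1 of which is dim, its log2 change was 0.30 (adjusted p = 0.41). Scarb1, the HDL receptor, had 3471, 2676 and 4277 in Fn, against 2178, 2015 and 2125 in Wt testes (log2 change 0.70, adjusted p = 0.0026 from limma), and its other probe sets rose by 0.94 or more.

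**Figure D3:**
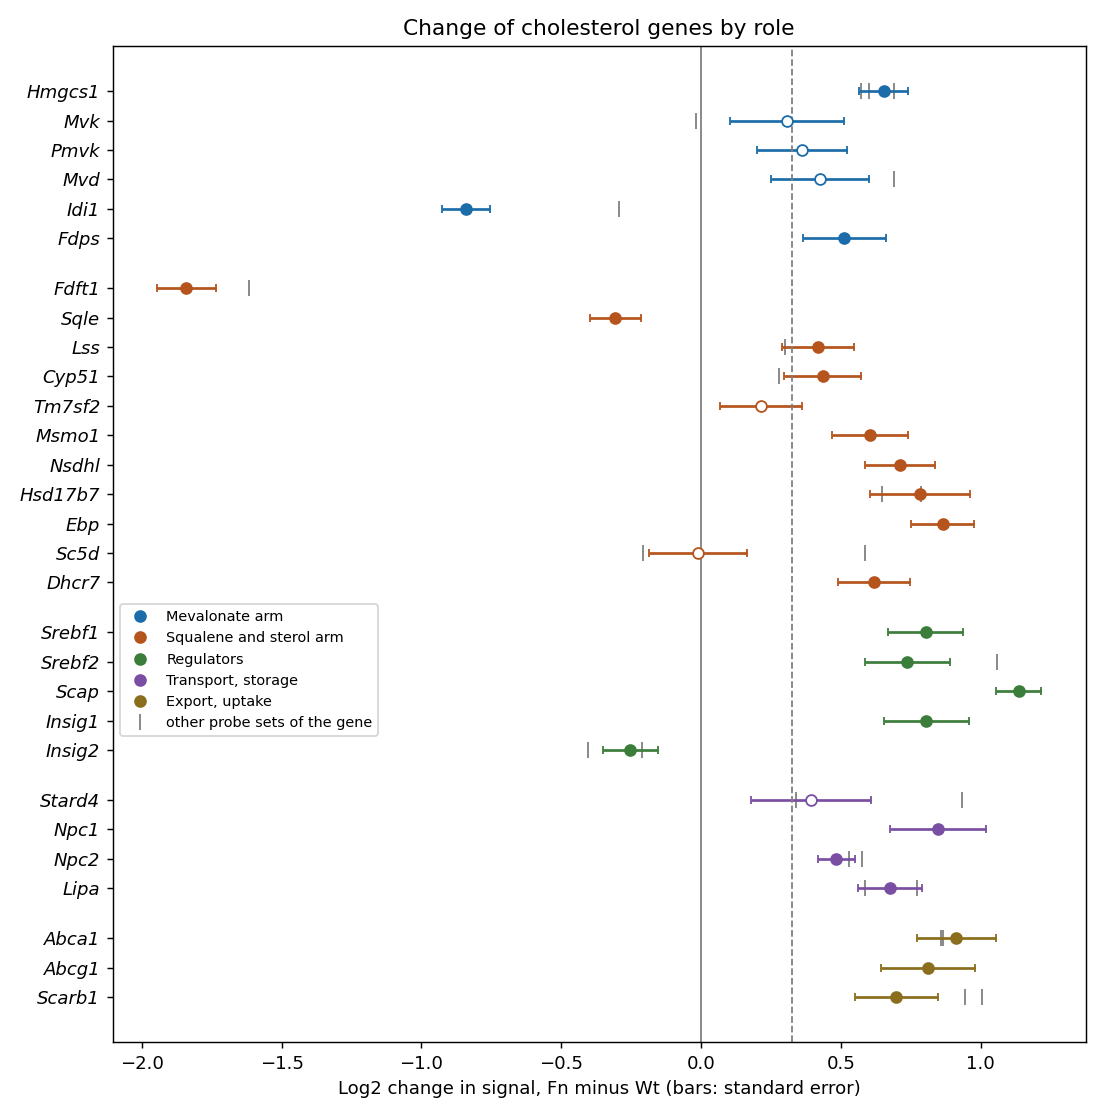
Change in log2 signal (Fn minus Wt) of 29 cholesterol genes by role, with standard error bars from limma over 3 arrays per genotype. Filling marks an adjusted p under 0.05, grey ticks are other probe sets of the same gene, the solid line is at 0 and dashes mark 0.32, the all-gene median. Of the 4 points filled and below 0, Fdft1 is farthest out at -1.84.

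By role, 2 of 6 mevalonate genes were higher and 1 lower, 7 of 11 squalene and sterol genes were higher and 2 lower, 4 of 5 regulators were higher and 1 lower, 3 of 4 transport and storage genes were higher, and 3 of 3 export and uptake genes were higher. Of all genes, 44.9% were higher and 24.7% lower, and the mevalonate arm's 33.3% higher lay below that share. The median log2 changes were 0.39, 0.43, 0.80, 0.58 and 0.81 in that order, all above the 0.32 of all genes.

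Of 47 other sterol genes on a wider list, 38 were tested, of which 21 were higher and 8 lower (55.3% and 21.1%, against 44.9% and 24.7% of all genes), or 15 and 9 after median centring, where all genes had 33.1% and 27.4%. Their median log2 change was 0.58. Tmem97, a relative of Ebp that binds NPC1, had 1841, 2267 and 1949 in Fn, against 7863, 8903 and 8977.5 in Wt testes (log2 change -2.09, standard error 0.097, adjusted p = 3.0e-07 from limma). Gramd1c and Gramd1b, which carry sterol from the plasma membrane to the endoplasmic reticulum, had log2 changes of -2.64 (adjusted p = 5.4e-06) and -1.19 (adjusted p = 4.7e-05), whereas Gramd1a of the same family rose by 0.64 (adjusted p = 0.0023 from limma). Gramd1c gave 521.5, 667.4 and 348.6 in Fn, against 2947, 2959 and 3391 in Wt testes. Rnf139, a ubiquitin ligase of the endoplasmic reticulum, fell by 0.79 and Hdlbp, an RNA-binding protein, by 0.61 on the log2 scale. Over the settings run, the log2 change of Gramd1b was -2.60 to -1.08 and that of Rnf139 -2.05 to -0.68, all past the threshold.

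Among the genes of that list that passed, the 5 largest rises were Mbtps2 with a log2 change of 1.18, Mylip with 1.17, Cav1 with 1.10, Cyp27a1 with 1.10 and Lrp1 with 1.06. Each had 3 Fn values above 3 Wt values, as had 48.9% of all genes. Mbtps2 encodes a protease that releases SREBP, Mylip a ubiquitin ligase for lipoprotein receptors, Cav1 caveolin, Cyp27a1 a sterol hydroxylase and Lrp1 an endocytic receptor. Mbtps1, the protease that makes the first cut in SREBP, had 3172, 3091 and 3464 in Fn, against 1842, 1742 and 1633 in Wt testes (log2 change 0.90, adjusted p = 3.0e-05 from limma). Mbtps1 and Gramd1a were named after their values were seen. With the replicate number as a block, Vldlr lost its call (adjusted p = 0.073) and Abca7, Pltp and Cyp46a1 gained one (0.022, 0.048 and 0.029).

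**Figure D4:**
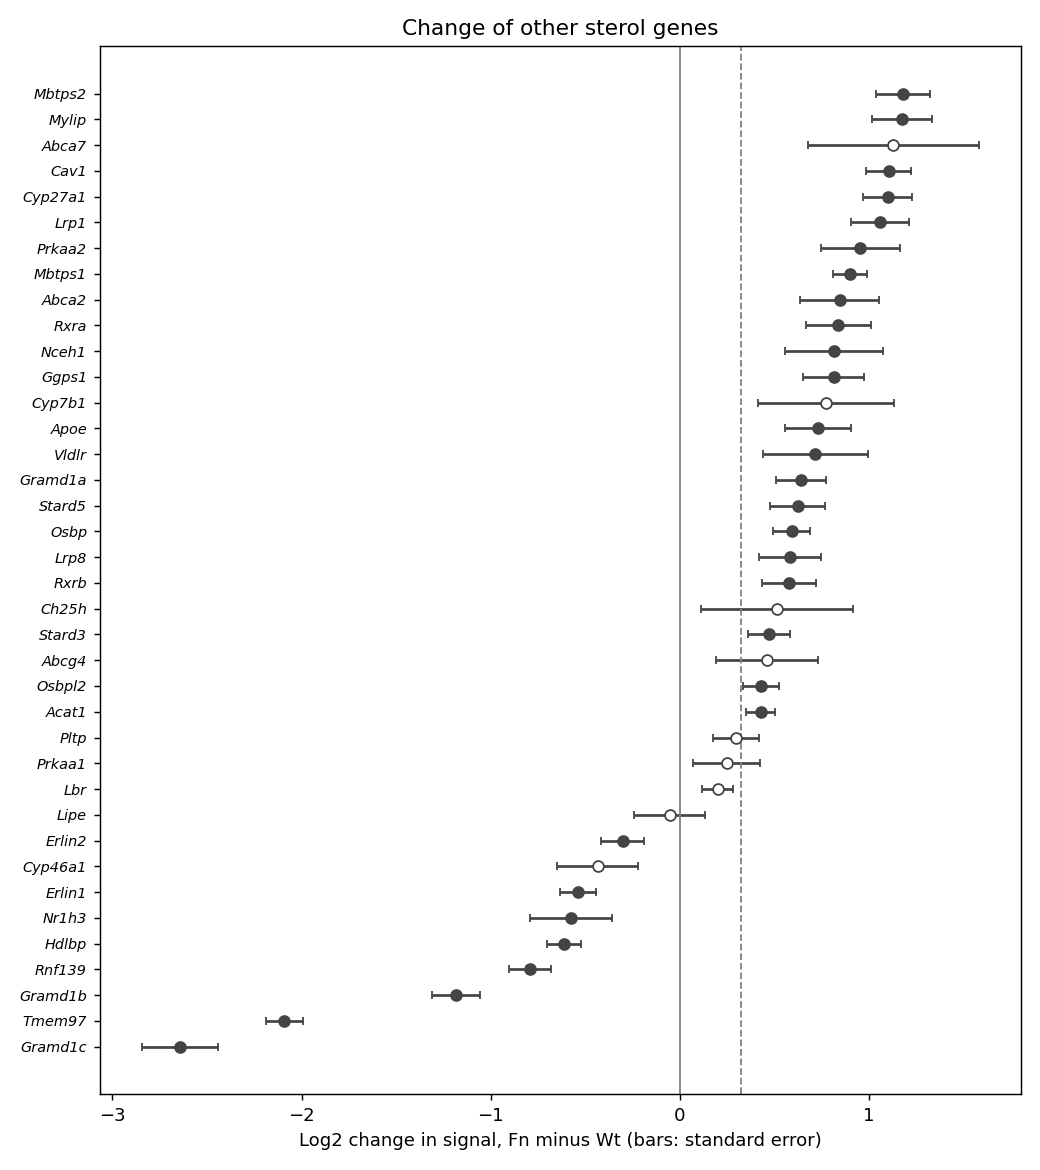
Change in log2 signal (Fn minus Wt) of the 38 other sterol genes tested, sorted by the change, with standard error bars from limma over 3 arrays per genotype. Filling marks an adjusted p under 0.05, the solid line is at 0 and dashes mark 0.32, the all-gene median. Gramd1c and Tmem97 lie apart at -2.64 and -2.09, and Mbtps2 is highest at 1.18.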

How the data were processed

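RNA of whole P21 testes was hybridised by the authors to Affymetrix Mouse Genome 430 2.0 arrays. They deposited the MAS5 signal of every probe set, which is a linear intensity, scaled so that each array's mean without the highest and lowest 2% was 498.4 to 498.6. The submitters' processing notes name MAS5 without a version, and the paper names GeneSpring for the authors' own analysis. Detection calls and scanner files were not used here. Of 45037 probe sets, 34945 named 1 gene, 932 several and 9160 none.

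The 1 value under 0.1 was set to 0.1. Log2 signals were fitted in R 4.3.3 with limma 3.58.1 (eBayes, variance trend on intensity) to compare Fn with Wt in probe sets at or above the 40th percentile of mean log2 signal, and p-values were Benjamini-Hochberg adjusted over them. The steps were tested on simulated data. Spearman correlations between arrays were 0.951 to 0.961 within and 0.897 to 0.914 between genotypes. After subtraction of group means, Fn and Wt arrays with the same number correlated at 0.12 to 0.16, and those of other pairs at -0.15 to 0.04. Arrays with the same number may therefore be paired, but no source states a pairing. The main fit had no replicate block for that reason, and a fit with the block was run as an alternative. The labels call the samples biological replicates without naming animals, so p-values measure the spread between these RNA preparations, and the number of arrays limits the precision.

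Named genes are all members and, of the wider list, the 5 lowest and 5 highest log2 changes that passed. The members and lists were chosen with earlier results of these data known. Probe sets whose ID ends in _x_at or _s_at, as for Hmgcs1 and Hsd17b7, can also read related transcripts. Alternatives covered scaling, filter, pseudocount, prior variance, array weights, probe set, threshold, replicate block and each array left out. The second brightest probe set was added as an alternative after the data were seen.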

Additional observations from a re-analysis of the deposited data

How the results depend on the processing

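Of 23 members that passed, 16 kept their direction and an adjusted p under 0.05 under every alternative fit run for them, including Fdft1, Sqle, Scap, Insig1, Srebf1, Srebf2, Abca1 and Scarb1. These fits leave out the 2-fold threshold, which has no p, and the second brightest probe set where a gene had 1 passing set. The others, Idi1, Fdps, Lss, Cyp51, Insig2, Npc2 and Abcg1, kept their direction and lost the call under at least 1. Idi1 lost it only with its second brightest probe set, and Npc2 (limma, adjusted p = 0.072) and Abcg1 only with the mean of probe sets. For both Npc2 and Abcg1 that mean includes 1 probe set that did not pass the filter. Sqle, read by 1 probe set, kept its call narrowly, with an adjusted p of 0.0496 from limma without Fn replicate 3. Over the alternatives that leave out 1 array, 16 to 20 members were higher and 3 to 4 lower, and the members' median log2 change was 0.46 to 0.65. Centring the arrays on their medians moved that median to 0.44. At more than 2-fold, 1 member was higher and 1 lower, and 6 of the 38 other sterol genes tested were higher and 3 lower. Of all genes, 11.8% were higher and 13.9% lower at that threshold. The second brightest probe sets, read for 16 members, gave 9 higher and 2 lower, against 9 and 3 for the brightest sets of the same genes. With the replicate block, 21 members were higher and 4 lower, and among the members only the calls of Mvd and Stard4 changed. A change of sign was seen only in members that had not passed: the log2 change of Mvk was -0.017 with its second brightest probe set, and that of Sc5d was 0.12 with the mean of probe sets and -0.18 to 0.20 with 1 array left out (0.03 without Fn replicate 2, 0.20 without Wt replicate 1). Fdps had no value with the mean of probe sets. Other scanner-level backgrounds could not be run on MAS5 signals, so adding 16 to each signal stood in, and it gave 19 higher and 4 lower.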
